A study of Homo sapiens with 4 samples.

Results

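Cohesin and its loaders were followed through 9 genes: RAD21, SMC1A, SMC3, STAG1, STAG2, NIPBL, WAPL, PDS5A and PDS5B. All probe sets that the platform annotation assigns to one of these symbols alone were taken, 35 in all out of 41097 single-gene probe sets on the array. The set was selected on the signals of these same arrays, because one RAD21 probe set stood far from its partner and the partner subunits were to be read beside it. The values below therefore describe the members and carry no test. The cells were T84, an established line from a human colorectal carcinoma whose cells polarise into a sheet, seeded on porous filters and transfected with short oligonucleotides.

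Each of the 4 groups had 1 Affymetrix U133 Plus 2.0 array. The 4-miRNA cells received oligonucleotides named for miR-338-3p and miR-451 together with others named for miR-33a and miR-210, and were collected on day 5. The 2-miRNA cells received the miR-338-3p and miR-451 oligonucleotides without the other pair and were likewise collected on day 5. The control cells received a short RNA with little likeness to human microRNAs and were collected on day 7 or on day 5. Every culture therefore carried a transfected RNA, 15 pmol per the labels, and no untransfected culture was analysed here. The labels do not say whether the oligonucleotides mimic or block the microRNAs. Precision is limited by this number of arrays, and with 1 culture a group there is no p-value. Measurements are of a whole culture, in which fewer cells with a transcript and less of it per cell cannot be told apart.

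Cohesin is a ring that holds sister chromatids together from replication to anaphase and that folds interphase chromosomes into loops. SMC1A and SMC3 are its ATPase arms, RAD21 is the kleisin that closes the ring, and STAG1 or STAG2 binds RAD21 as the remaining subunit. NIPBL loads the ring onto DNA and drives loop extrusion, WAPL opens it for release, and PDS5A and PDS5B, bound to RAD21, take part in both release and protection. SMC1A and STAG2 are X-linked, and STAG2 is often mutated in cancer.

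MicroRNAs find their messenger RNAs mainly through the seed, bases 2 to 8. Sequences of the microRNAs that the oligonucleotides are named for are shown. They are reference entries, and the labels do not give the strands that the cells received. No match was found for miR-451, which is named in both mixes, and it is not shown. Of the 4 microRNAs, 3 were matched in the RefSeq table (GRCh38.p14), at chr17:81125887-81125908 (minus strand), chr22:41900949-41900969 (plus strand) and chr11:568112-568133 (minus strand). For miR-33a and miR-210 the labels name no arm, and the arm usually loaded is printed. Capitals mark the seed, and the 3 seeds differ from each other.
miR-338-3p: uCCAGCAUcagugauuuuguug
miR-33a-5p: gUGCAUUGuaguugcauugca
miR-210-3p: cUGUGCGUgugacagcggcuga

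The deposited signal was brighter on the microRNA arrays, with trimmed means of 150 (4-miRNA) and 147 (2-miRNA), against 74.3 (day 7 control) and 76.6 (day 5 control). Each was therefore brought to a mean of 500, taken without the dimmest and the brightest 2% of probe sets. Differences below are on the scale of log2(scaled signal + 32), which understates changes of dim probe sets, and 1 or more in size is called at least 2-fold. Deposited brightness and microRNA treatment coincide and cannot be told apart. A probe set counted as expressed if its mean log2 was at or over the overall median, or its signal at or over an array's 75th percentile, which held for 27339 of 54675. All 12 colon epithelium markers were above the array median on all arrays. By this scaling KRT18, CDX1 and LGALS4 were lower on both microRNA arrays than on both controls, EPCAM was higher, and the others overlapped. KRT18 had 39650 and 39398 in 4-miRNA and 2-miRNA cells, against 69867 and 65666 in the day 7 and day 5 controls. EPCAM had 35406 and 37349 against 28272 and 21199 in the same order. Of the markers for other cells, 3 of 6 fibroblast, 3 of 6 leukocyte and 1 of 4 endothelial genes were expressed, and COL3A1, DCN, LUM, PTPRC, CD14, VWF, CDH5 and KDR were not. The leukocyte list summed to 827 and 710 in 4-miRNA and 2-miRNA cells, against 475 and 385 in the day 7 and day 5 controls, and LYZ (lysozyme) within it was at least 2-fold higher, with 462 and 490 in 4-miRNA and 2-miRNA cells, against 144 and 111 in the controls. The fibroblast list summed to 450 and 451 in 4-miRNA and 2-miRNA cells, against 714 and 810 in the day 7 and day 5 controls, and THY1 in it was dim in 4-miRNA cells, at least 2.01-fold under the day 5 control. The endothelial list summed to 219 and 325 in 4-miRNA and 2-miRNA cells, against 367 and 286 in the controls. Without LYZ the leukocyte sum was 365 and 221 in 4-miRNA and 2-miRNA cells, against 331 and 274 in the day 7 and day 5 controls, which overlap. Within the fibroblast list COL1A1 was lower on both microRNA arrays (−0.84 and −0.85 from the day 5 control), while COL1A2 was not (0.24 and 0.13). LYZ, the fibroblast sum and the epithelial markers KRT18, CDX1, LGALS4 and EPCAM separated microRNA from control arrays, and their part in the results was not tested. The 3′ to 5′ signal ratio of the ACTB control probe sets was 1.97, 2.28, 2.33 and 2.11 on the 4-miRNA, 2-miRNA, day 7 and day 5 arrays. That of the GAPDH control probe sets was 0.951, 0.962, 0.978 and 1.02 in the same order. The ACTB ratio overlapped between the kinds of array, while the GAPDH ratio was slightly lower on both microRNA arrays than on both controls, and its part in the results was not tested.

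Of the 35 cohesin probe sets 29 were expressed, 2 for RAD21, 3 each for SMC1A, SMC3, STAG1, STAG2, WAPL and PDS5B, 4 for PDS5A and 5 for NIPBL. All 29 passed on their mean signal, which leaves out 6 dim probe sets described further on. Signals of different probe sets are not comparable with each other, because each has its own probes; only the pattern of a probe set over the arrays is read here.

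**Figure D1:**
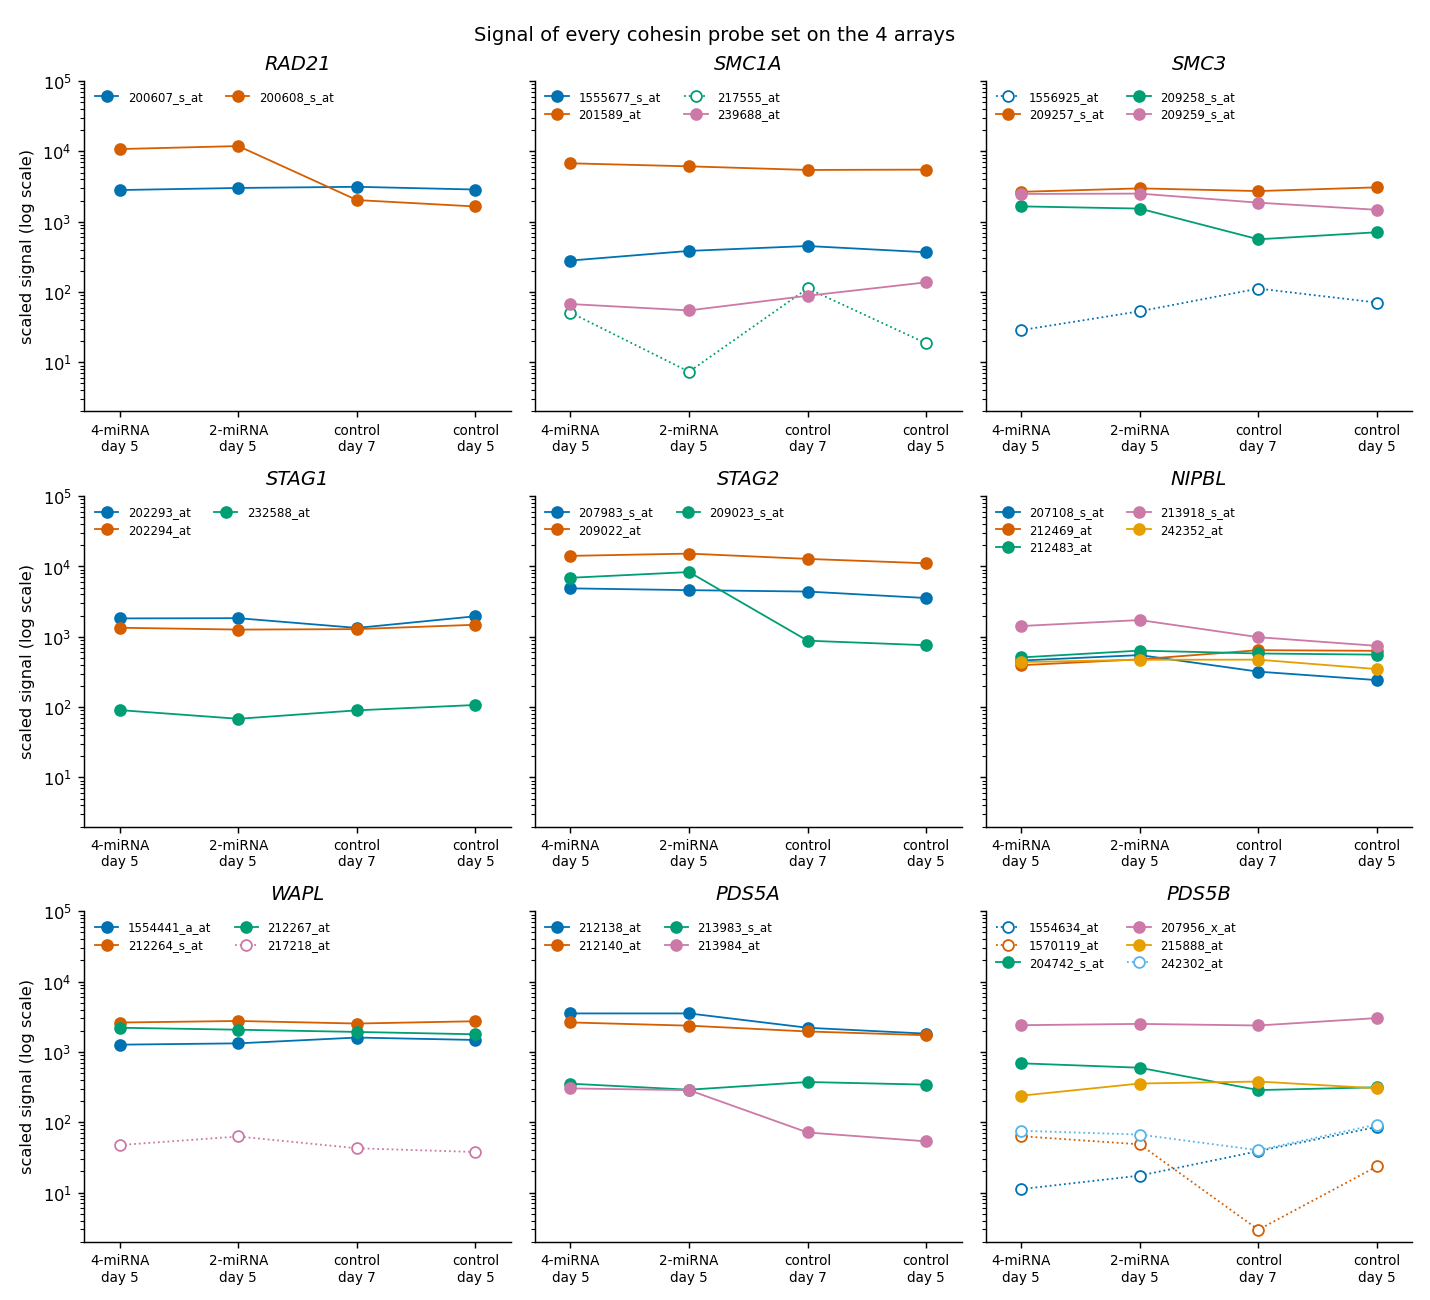
Scaled signal (log axis) of the 35 probe sets of the 9 cohesin genes on the 4 arrays, 1 array per group, with filled points for expressed probe sets and open points joined by dotted lines for those not expressed. One probe set each of RAD21, STAG2, SMC3 and PDS5A is at least 2-fold higher on both microRNA arrays than on both controls, while at least one other probe set of each of these genes was under 2-fold apart.

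RAD21, the kleisin, gave 2 different answers. Probe set 200608_s_at had a scaled signal of 10779 in 4-miRNA cells and 11891 in 2-miRNA cells, against 2029 in the day 7 control and 1645 in the day 5 control. Both microRNA arrays were high and both controls low, with log2 differences from the day 5 control of 2.69 (4-miRNA) and 2.83 (2-miRNA), or 2.39 and 2.53 from the day 7 control. Probe set 200607_s_at had 2817 in 4-miRNA cells and 3015 in 2-miRNA cells, against 3133 in the day 7 control and 2865 in the day 5 control. Its 4 arrays were nearly level, and the same differences were −0.02 and 0.07 from day 5, −0.15 and −0.05 from day 7. The log2 signal of 200608_s_at minus that of 200607_s_at was 1.92 and 1.97 on the 4-miRNA and 2-miRNA arrays, against −0.62 and −0.79 on the day 7 and day 5 controls. Such a difference within an array does not depend on the factor that scales it, apart from the added 32. Whether RAD21 messenger RNA as a whole differed cannot be read from probe sets that disagree in this way.

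SMC1A, an ATPase arm of the ring, was nearly level by probe set 201589_at, which had 6760 in 4-miRNA cells and 6121 in 2-miRNA cells, against 5440 in the day 7 control and 5499 in the day 5 control. Both microRNA arrays lay above both controls, by log2 differences of 0.30 and 0.15 from day 5. Probe set 1555677_s_at had 280 and 384 in 4-miRNA and 2-miRNA cells, against 451 and 367 in the day 7 and day 5 controls, and the 2 kinds of array overlapped. Probe set 239688_at was the lowest of all 29 relative to the day 5 control, at −0.77 (4-miRNA) and −0.96 (2-miRNA). It had 67.4 in 4-miRNA cells and 54.7 in 2-miRNA cells, both under the array median, against 88.4 in the day 7 control, also under it, and 137 in the day 5 control.

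SMC3, the other arm, had 3 expressed probe sets with 3 patterns. Probe set 209258_s_at had 1650 in 4-miRNA cells and 1535 in 2-miRNA cells, against 562 in the day 7 control and 707 in the day 5 control. It was higher on both microRNA arrays, with log2 differences from the day 5 control of 1.19 (4-miRNA) and 1.08 (2-miRNA). Probe set 209259_s_at was higher too, but under 2-fold, with 2477 and 2507 in 4-miRNA and 2-miRNA cells, against 1863 and 1474 in the day 7 and day 5 controls. Probe set 209257_s_at overlapped between the kinds of array, with 2657 and 2975 in 4-miRNA and 2-miRNA cells, against 2724 and 3077 in the day 7 and day 5 controls.

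STAG2, the X-linked STAG subunit, held the largest difference among the members. Probe set 209023_s_at had 6909 in 4-miRNA cells and 8337 in 2-miRNA cells, against 880 in the day 7 control and 759 in the day 5 control. That is a log2 difference from the day 5 control of 3.13 (4-miRNA) and 3.40 (2-miRNA), and of 2.93 and 3.20 from the day 7 control. Of all expressed probe sets, 0.09% and 0.07% had a difference from the day 5 control at least as high on the 4-miRNA and 2-miRNA arrays. For RAD21 200608_s_at these shares were 0.27% and 0.24%. The members were selected on the signal of that probe set, so nothing is read from its shares.

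The other STAG2 probe sets did not share this height. Probe set 209022_at had 14158 and 15245 in 4-miRNA and 2-miRNA cells, against 12821 and 11103 in the day 7 and day 5 controls. Probe set 207983_s_at had 4887 and 4607 in 4-miRNA and 2-miRNA cells, against 4401 and 3559 in the day 7 and day 5 controls. Both stood slightly above both controls on both microRNA arrays, by 0.35 to 0.46 from the day 5 control and by 0.07 to 0.25 from the day 7 control. The log2 signal of 209023_s_at minus that of 209022_at was −1.03 and −0.87 on the 4-miRNA and 2-miRNA arrays, against −3.82 on each control.

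STAG1, the alternative to STAG2, was level by comparison. Its probe sets agreed closely, with log2 differences from the day 5 control between −0.18 and −0.10 in 4-miRNA cells and between −0.47 and −0.09 in 2-miRNA cells, although with arrays scaled to their medians all 3 turned above 0 in 4-miRNA cells and 202293_at did in 2-miRNA cells. Probe set 202293_at had 1827 and 1840 in 4-miRNA and 2-miRNA cells, against 1338 and 1960 in the day 7 and day 5 controls. Its low array was the day 7 control, 0.54 under day 5 on the log2 scale, which was the largest difference between the controls among the 29. Probe set 202294_at had 1345 and 1267 in 4-miRNA and 2-miRNA cells, against 1286 and 1483 in the day 7 and day 5 controls. The third, 232588_at, had 90.7 and 68.2 against 90.0 and 107 in the same order. From the day 7 control the 3 lay further apart, from 0.01 to 0.44 in 4-miRNA cells and from −0.28 to 0.45 in 2-miRNA cells.

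NIPBL, the loader, split into probe sets that were higher and probe sets that were level or lower. Probe set 213918_s_at had 1423 in 4-miRNA cells and 1731 in 2-miRNA cells, against 988 in the day 7 control and 744 in the day 5 control, a log2 difference from day 5 of 0.91 and 1.18. Probe set 207108_s_at followed it, with 459 and 550 in 4-miRNA and 2-miRNA cells, against 320 and 242 in the day 7 and day 5 controls (0.84 and 1.09 from day 5). Probe set 212469_at went the other way, with 394 and 479 in 4-miRNA and 2-miRNA cells, against 646 and 632 in the day 7 and day 5 controls. The remaining pair, 212483_at and 242352_at, overlapped between the kinds of array, with signals from 509 to 637 and from 348 to 473. Against the day 7 control no NIPBL probe set was at least 2-fold higher.

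WAPL, the release factor, was level on its 3 expressed probe sets. Their log2 differences from the day 5 control ran from −0.22 to 0.31 in 4-miRNA cells, from −0.16 to 0.21 in 2-miRNA cells and from −0.11 to 0.11 in the day 7 control. Probe set 212264_s_at had 2620 and 2757 in 4-miRNA and 2-miRNA cells, against 2535 and 2734 in the day 7 and day 5 controls.

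PDS5A, one of the paralogous PDS5 regulators, was higher by 3 of its 4 probe sets. Probe set 212138_at had 3528 and 3530 in 4-miRNA and 2-miRNA cells, against 2207 and 1820 in the day 7 and day 5 controls, a log2 difference from day 5 of 0.94 for each mix. Probe set 212140_at had 2627 and 2363 in 4-miRNA and 2-miRNA cells, against 1955 and 1730 in the day 7 and day 5 controls. Both had their microRNA arrays above both controls, though under 2-fold. Over the other scalings and offsets tried, 212138_at reached up to 1.22 (4-miRNA) and 1.13 (2-miRNA) from the day 5 control.

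The last PDS5A pair disagreed although the annotation gives both the same source record. Probe set 213984_at had 303 in 4-miRNA cells and 286 in 2-miRNA cells, against 71.6 in the day 7 control and 53.5 in the day 5 control. Both control values were under the array median, so the signal was at least 3.05-fold (4-miRNA) and 2.88-fold (2-miRNA) that of the day 5 control, taking the control at its array median. Probe set 213983_s_at had 354 and 290 in 4-miRNA and 2-miRNA cells, against 374 and 343 in the day 7 and day 5 controls, with the kinds of array overlapping.

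PDS5B, the other paralogue, was likewise divided. Probe set 204742_s_at had 689 and 596 in 4-miRNA and 2-miRNA cells, against 287 and 314 in the day 7 and day 5 controls, a log2 difference from day 5 of 1.06 and 0.86. Probe set 207956_x_at had 2401 and 2505 in 4-miRNA and 2-miRNA cells, against 2378 and 3032 in the day 7 and day 5 controls. Probe set 215888_at had 239 and 356 in 4-miRNA and 2-miRNA cells, against 379 and 304 in the day 7 and day 5 controls. In these last 2 probe sets the kinds of array overlapped.

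The 6 probe sets that were not expressed were 217555_at of SMC1A, 1556925_at of SMC3, 217218_at of WAPL, and 1554634_at, 1570119_at and 242302_at of PDS5B. Their scaled signals lay between 2.96 and 113, around or under the array medians of 81.6 to 99.3. At such signals a log2 difference is set largely by the added 32, and the differences of 1.51 (217555_at, day 7 minus day 5) and −1.45 (1554634_at, 4-miRNA minus day 5) are given for completeness only.

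**Figure D2:**
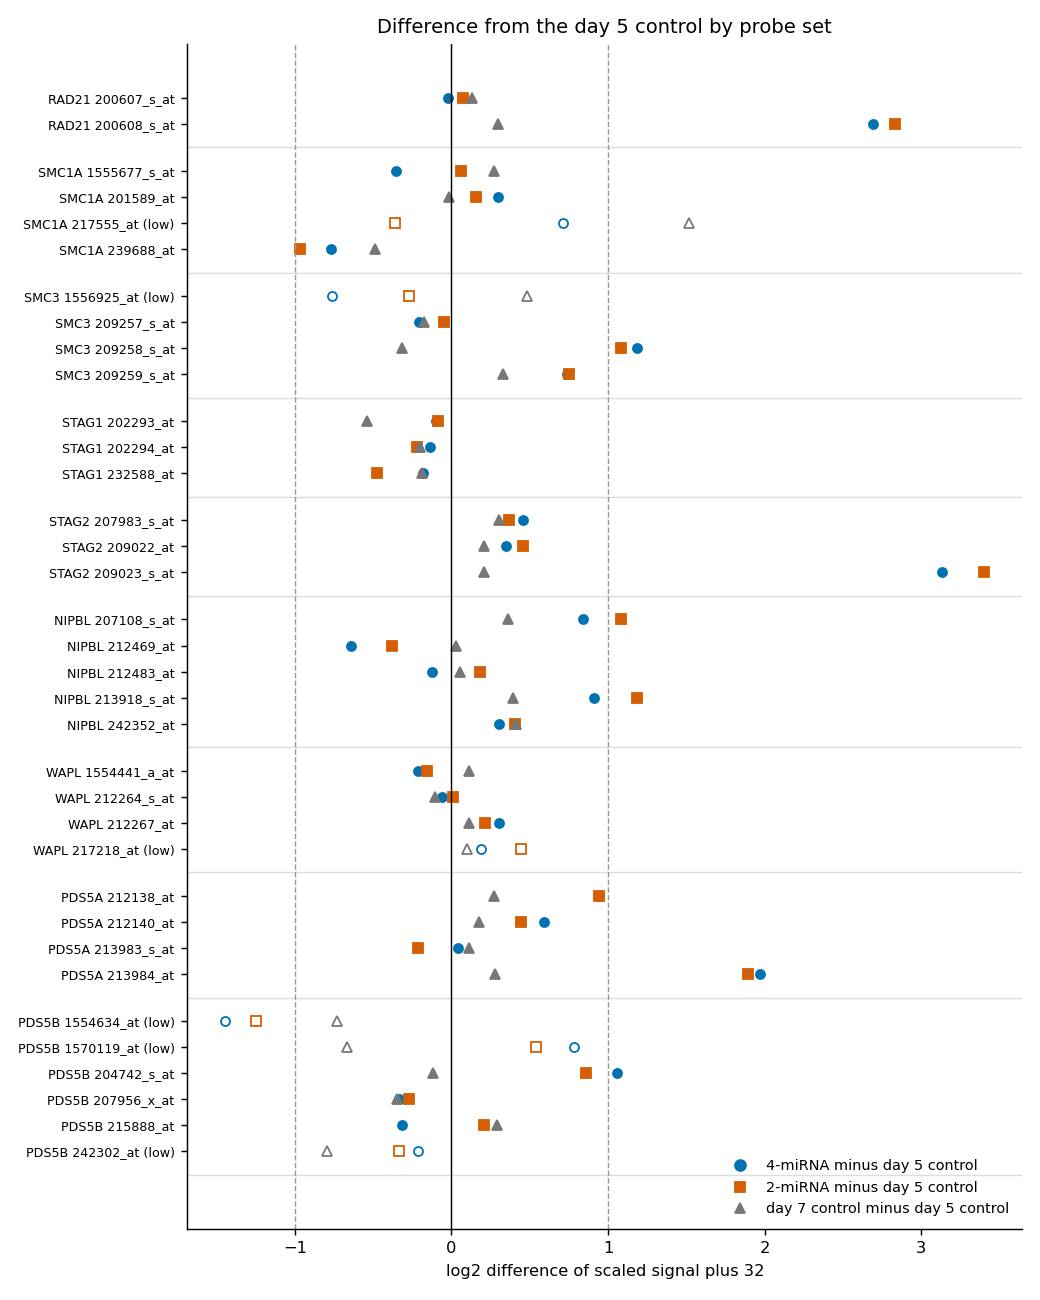
Log2 difference from the day 5 control for each cohesin probe set, with circles for the 4-miRNA array, squares for the 2-miRNA array, triangles for the day 7 control, open symbols for probe sets not expressed and dashed lines at 2-fold. Differences of the 2 mixes lie close together on most rows, the largest is 3.40 for STAG2 209023_s_at, and the expressed probe sets of the day 7 control stay between −0.54 and 0.41.

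Counted over the 29 expressed probe sets, 5 were at least 2-fold higher in 4-miRNA cells than in the day 5 control and 0 were at least 2-fold lower, where 8.37% and 6.45% of all expressed probe sets were. In 2-miRNA cells 6 were higher and 0 lower, beside 9.36% and 5.77% of all. Since the genes were brought together for a difference in these comparisons, nothing is read from these shares. The members' median was 0.30 in 4-miRNA cells and 0.21 in 2-miRNA cells, beside a median over all expressed probe sets of −0.12 and −0.09. With each array scaled to its median instead, the members' medians were 0.57 and 0.37 and those of all expressed probe sets 0.13 and 0.08, so the sign of a difference near 0 depends on the scaling. By that scaling 13.2% of all expressed probe sets were at least 2-fold higher and 2.95% lower in 4-miRNA cells, and 12.4% and 3.24% in 2-miRNA cells. Against the day 7 control 5 members were at least 2-fold higher in 4-miRNA cells and 4 in 2-miRNA cells, beside 6.37% and 7.48% of all, with 0 lower beside 4.71% and 4.19%. The comparisons share arrays and are not independent of each other.

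Both microRNA arrays lay above both controls for 14 of the 29, and below both for 3, beside 23.6% and 36% of all expressed probe sets. With arrays scaled to their medians 20 of the 29 lay above both, beside 34.8% of all. At least 2-fold above both controls were 4 of the 29, one each of RAD21, SMC3, STAG2 and PDS5A, beside 3.13% of all, and 0 were as far below, beside 0.53%. Of the 4, 3 carry the suffix _s_at, which marks probes shared by several transcripts, and 13 of the 29 do. Over the array the share of expressed probe sets that far above both controls was 3.18% for that suffix and 3.1% for the plain _at suffix.

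The spread within a gene was set beside that of other genes with the same number of expressed probe sets. For RAD21 the log2 differences of its 2 probe sets from the day 5 control lay 2.71 apart in 4-miRNA cells and 2.76 apart in 2-miRNA cells. Of 3266 genes with 2 expressed probe sets, 0.83% and 0.89% had a range at least as wide, and their median range was 0.52 and 0.53. RAD21 was chosen for the gap between its probe sets, so nothing is read from its place among these genes. For STAG2 the range over 3 probe sets was 2.78 in 4-miRNA cells and 3.03 in 2-miRNA cells, which 1.69% and 1.1% of 1541 genes with 3 reached. For PDS5A the range over 4 was 1.93 and 2.11, reached by 14.1% and 10.1% of 652 genes. Ranges of SMC1A, SMC3, PDS5B and NIPBL lay between 1.06 and 1.56 and were reached by 24.6% to 40% of genes with as many probe sets. STAG1 (0.08 and 0.39) and WAPL (0.52 and 0.37) had narrow ranges, reached by 75.1% to 99.7%.

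**Figure D3:**
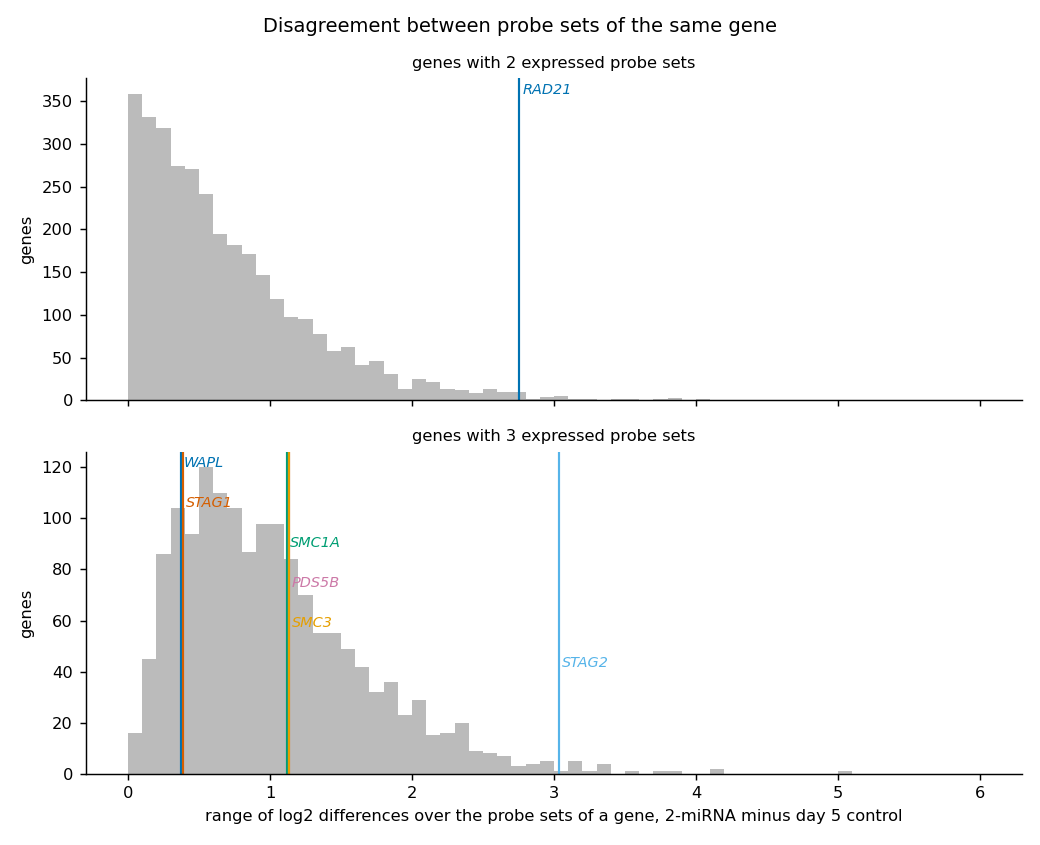
Number of genes by the range of log2 differences (2-miRNA minus day 5 control, bins of 0.1) over the probe sets of a gene, above for genes with 2 expressed probe sets and below for those with 3, with cohesin genes as vertical lines. RAD21 at 2.76 and STAG2 at 3.03 are in the sparse right tails, SMC1A, SMC3 and PDS5B lie together between 1.12 and 1.13, and WAPL and STAG1 are at 0.37 and 0.39. RAD21 was chosen for this gap, so nothing is read from its place.

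Between the controls the same probe sets agreed. The range in day 7 minus day 5 was 0.17 for RAD21, 0.10 for STAG2 and 0.16 for PDS5A, and 73.8%, 97.7% and 98.5% of genes with as many expressed probe sets had one at least as wide. Over the array, the SD of a log2 difference specific to a probe set, estimated on 2625 genes from their probe sets with a log2 signal averaging at least 9, was 0.58 for each microRNA array against the day 5 control, 0.27 for day 7 against day 5 and 0.18 for 4-miRNA against 2-miRNA. The disagreement of RAD21 and STAG2 is thus seen between microRNA and control arrays, which is also where probe sets of other genes disagree most. Deposited brightness differs along the same line, and its part in the result was not tested.

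The 4-miRNA and 2-miRNA arrays differ by the miR-33a and miR-210 oligonucleotides, and the labels leave unsaid whether the dose of the shared pair differed as well. None of the 29 probe sets was at least 2-fold apart, beside 1.16% higher and 2.01% lower of all expressed probe sets, and the differences ran from −0.52 (PDS5B 215888_at) to 0.29 (STAG1 232588_at) with a median of −0.06, which is 0.03 with arrays scaled to their medians. For RAD21 they were −0.14 and −0.10, close together. Above 0 were 11 of the 29, beside 46.8% of all expressed probe sets. All 5 NIPBL probe sets, which share a gene and the same arrays, lay below 0, between −0.31 and −0.10. Of these, 213918_s_at had 1423 in 4-miRNA cells against 1731 in 2-miRNA cells. Over the 29 the differences largest in size were those of PDS5B 215888_at and SMC1A 1555677_s_at (−0.42). The probe set SD describes probe sets of a gene, not cultures, so it cannot say which differences stand out.

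The day 7 control was set against day 5 for what went with 2 further days in culture. None of the 29 was at least 2-fold apart, beside 4.08% higher and 3.24% lower of all expressed probe sets. The members' median was 0.11 and that of all expressed probe sets 0.00. Above 0 were 19 of the 29, beside 50.1% of all expressed probe sets. All probe sets of RAD21, STAG2, NIPBL and PDS5A lay above 0, from 0.03 to 0.41, and all 3 of STAG1 below it. Expressed probe sets of SMC1A, SMC3, WAPL and PDS5B lay on both sides of 0. The largest of these differences in size was that of STAG1 202293_at, with 1338 on day 7 against 1960 on day 5.

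The genes whose pattern over the 4 arrays was most like that of RAD21 200608_s_at were found by the root mean square difference of log2 values centred on each probe set's mean. Over 22607 expressed probe sets of other genes, the nearest 5 genes were LIN7C, a scaffold of cell polarity complexes (0.0556), RCN2, a calcium-binding protein of the secretory pathway (0.0626), PPP1CB, a catalytic subunit of protein phosphatase 1 (0.0892), TANK, an adaptor of TRAF signalling (0.0892), and XRCC4, the partner of DNA ligase IV (0.09). LIN7C had 5419 and 5470 in 4-miRNA and 2-miRNA cells, against 999 and 819 in the day 7 and day 5 controls. Of the other members, STAG2 209023_s_at was the nearest, at rank 85 (0.28), followed by PDS5A 213984_at at rank 192 and SMC3 209258_s_at at rank 777, and SMC1A 239688_at was the farthest, at rank 19694. With 4 arrays many probe sets share such a pattern, and likeness here says only that the same arrays were high.

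Partners of cohesin were described by the probe set with the highest mean for each gene, over 12 expressed genes. Against the day 5 control 3 of the 12 lay above 0 in 4-miRNA cells and 2 in 2-miRNA cells, with medians of −0.34 and −0.39 beside −0.15 and −0.16 over all 12264 genes. By this count 0 partners were at least 2-fold higher in either mix, beside 8.03% and 8.11% of all genes, and in 4-miRNA cells 0 were as much lower, beside 6.7%. CDCA5 (sororin), which protects cohesin from release, had 1527 and 1262 in 4-miRNA and 2-miRNA cells, against 2070 and 2690 in the day 7 and day 5 controls. It was the only partner at least 2-fold lower by these probe sets, in 2-miRNA cells (−1.07), beside 6.37% of all genes. With arrays scaled to their medians it is not. By the median over expressed probe sets ESPL1 stood at −0.76 and −1.06 in 4-miRNA and 2-miRNA cells, and ESCO2 at 0.19 and 0.03. MAU2, which binds NIPBL in the loader, had 643 and 582 in 4-miRNA and 2-miRNA cells, against 741 and 773 in the day 7 and day 5 controls. ESCO1, which acetylates SMC3, had 1659 and 1623 in 4-miRNA and 2-miRNA cells, against 1313 and 1180 in the day 7 and day 5 controls. CTCF, which halts loop extrusion, lay at 0.04 and −0.32 from the day 5 control in 4-miRNA and 2-miRNA cells. With arrays scaled to their medians the partners' medians were −0.08 and −0.21, with 5 and 3 of 12 above 0.

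Condensin, the related SMC complex that compacts mitotic chromosomes, had 8 of 8 genes expressed, 0 of them at least 2-fold apart, beside 8.03% higher and 6.7% lower of all genes in 4-miRNA cells and 8.11% and 6.37% in 2-miRNA cells. Their median was −0.44 in 4-miRNA and −0.59 in 2-miRNA cells, or −0.16 and −0.41 with arrays scaled to their medians. Only its arms SMC2 (0.24 and 0.26) and SMC4 (0.12 and 0.10) lay above 0 by these probe sets. By the median over their expressed probe sets SMC2 stood at 0.81 and 1.01, past 2-fold in 2-miRNA cells, and SMC4 at −0.39 and −0.08. Of the SMC5-SMC6 complex, a further relative that acts in DNA repair, 6 of 7 genes were expressed. Its arm SMC5 was at least 2-fold higher, with 1250 and 1358 in 4-miRNA and 2-miRNA cells, against 376 and 402 in the day 7 and day 5 controls (1.56 and 1.68 from day 5). By the median over its 3 expressed probe sets SMC5 stood at 0.37 and 0.51, so its probe sets were divided too. Of the meiotic subunits REC8 and STAG3 were expressed and RAD21L1 and SMC1B were not. STAG3 was at least 2-fold lower in 4-miRNA cells by its log2 difference of −1.38, with 73.8 in 4-miRNA cells, under the array median, and 127 in 2-miRNA cells, against 189 in the day 7 control and 243 in the day 5 control. With the 4-miRNA array taken at its median, STAG3 was at least 2.98-fold lower there than in the day 5 control. Of 10 proliferation genes 4 and 3 lay above 0, with medians of −0.17 and −0.26 in 4-miRNA and 2-miRNA cells. The medians over all genes were −0.15 and −0.16. With arrays scaled to their medians those of the list were 0.11 and −0.08. AURKB, a mitotic kinase, was at least 2-fold lower in 2-miRNA cells (−1.09), beside 6.37% of all genes, though not with arrays scaled to their medians. By the median over its 2 expressed probe sets AURKB stood at −1.54 and −1.22 in 4-miRNA and 2-miRNA cells. By probe set medians CCNB1, TOP2A, CCNA2 and AURKA lay above 0 in both mixes. MKI67, CDK1, PCNA, MCM2 and BUB1 lay below it.

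**Figure D4:**
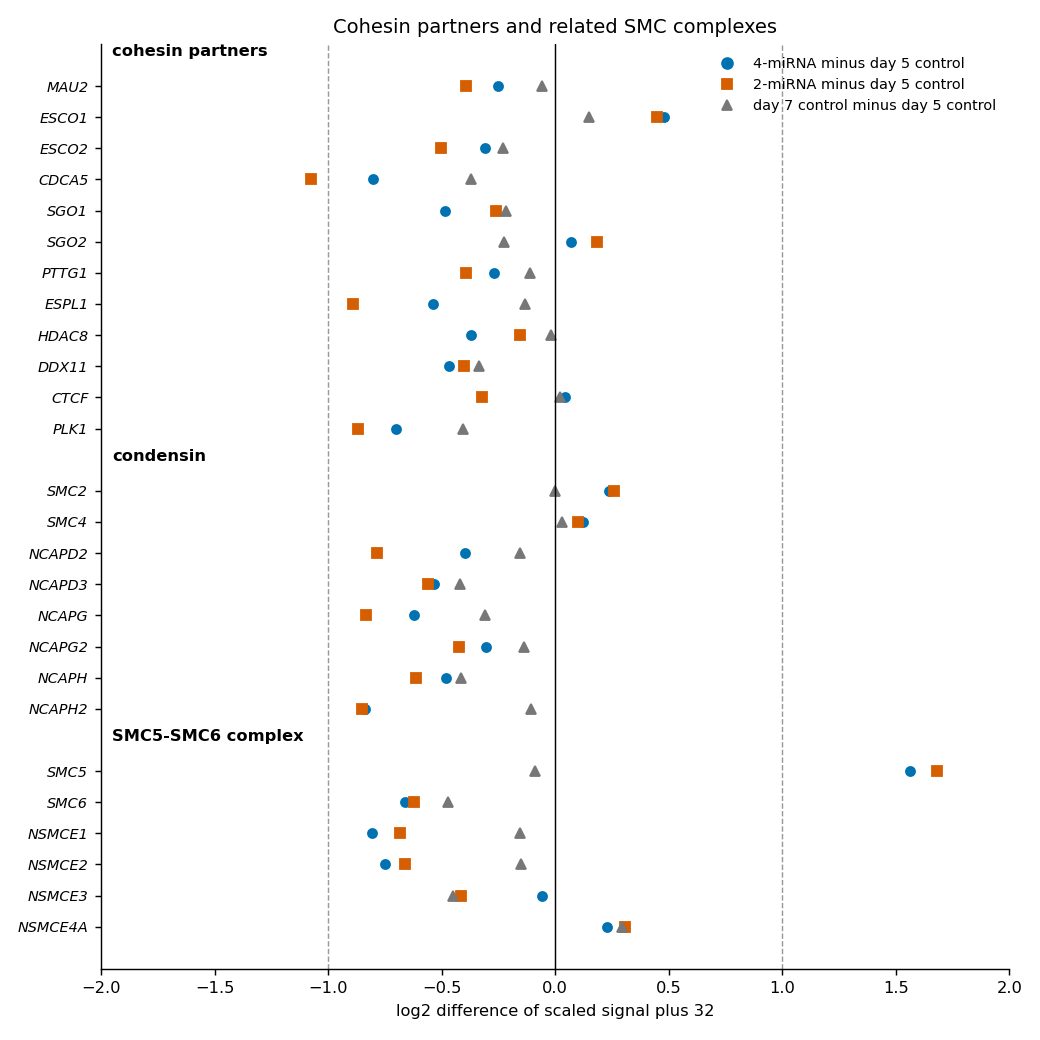
Log2 difference from the day 5 control of 12 cohesin partners, 8 condensin genes and 6 genes of the SMC5-SMC6 complex, by the probe set with the highest mean, with circles for the 4-miRNA array, squares for the 2-miRNA array and triangles for the day 7 control. Most genes lie below 0 (with arrays scaled to their medians, 5 of 12 partners lie above it in 4-miRNA cells) and within the dashed 2-fold lines, and SMC5 at 1.56 and 1.68 stands alone on the right.

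The member promoters were read for shared letters, in RefSeq windows (GRCh38.p14) from 250 bases before to 50 after a start; 11 windows of the 8 members other than RAD21 were used. The letters TTGGCGC, the core of many E2F sites, were found on either strand in 4 of the 11 windows, beside 3.04% of all 35116 windows. These 4 windows belong to 4 of the 8 genes (PDS5A, NIPBL, PDS5B and STAG2). The ETS core CCGGAAG was in 3 of the 11 windows, from 2 genes (10.3% of all windows). The SMC1A windows among these overlap and hold the same ETS site. The YY1 core GCCATNTT was in 2 windows, from 2 genes (6.58%), overlapping TTGGCGC by 2 bases in PDS5B. The GC box GGGCGG was in all 11 windows, from 8 genes (45% of all windows). The motifs were picked after the windows had been seen, genes with several windows have more chances of a match, and a match says nothing of binding. The stretches with TTGGCGC are shown because it was the rarest of these motifs over all windows, at chr4:39977997-39978053 (minus strand), chr5:36876696-36876752, chr13:32586422-32586478 and chrX:123961983-123962039 (plus strand). They are printed in the direction of the gene, with the match in capitals.
PDS5A: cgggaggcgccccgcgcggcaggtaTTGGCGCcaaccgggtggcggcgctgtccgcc
NIPBL: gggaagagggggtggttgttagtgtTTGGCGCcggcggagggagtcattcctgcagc
PDS5B: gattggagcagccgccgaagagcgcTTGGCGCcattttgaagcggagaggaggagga
STAG2: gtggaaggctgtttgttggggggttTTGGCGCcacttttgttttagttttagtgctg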

How the data were processed

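The authors deposited 1 linear intensity per probe set and array, which per the submitters' processing notes came from MAS5. Its version and target for scaling were not given in the sources used here. There were 54675 probe sets and 4 arrays. Biotin-labelled cRNA was made from 5 µg of total RNA, per the labels' protocols. The trimmed mean (2% off each end) of every array was set to 500 here, 32 was added and log2 taken, in Python 3.11.15. The platform annotation gave 41097 probe sets 1 symbol, 1801 several (left out) and 11777 none; 41043 matched the RefSeq gene table by gene ID. Members, lists and the rule for named genes were chosen with earlier results of these data known. An expressed probe set had a mean log2 at or over the median, or a signal at or over the 75th percentile of an array. Named were all members with every probe set, genes of the other lists at least 2-fold apart and the 5 genes nearest to RAD21 in pattern; other list genes were singled out after their values were seen. Scaling, the recovery of set fold changes and the probe set SD were checked on simulated arrays. The other computed statistics were not. Alternatives were scaling to the median, quantile normalization, centring on a running median, offsets of 16 and 64, other filters and the day 7 control. No test was run.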

Additional observations from a re-analysis of the deposited data

How the results depend on the processing

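No member probe set at least 2-fold apart changed sign with the scalings, offsets, filters or controls tried. Scaled to array medians, 9 members were at least 2-fold higher in 4-miRNA cells than in the day 5 control, where 5 were reported; the median over all expressed probe sets was then 0.13 instead of −0.12. With an offset of 16, 1 member was at least 2-fold lower in 2-miRNA cells. Without a filter on low signal, 1 dim probe set each was at least 2-fold lower in 2-miRNA and in 4-miRNA cells, and 1 higher in 4-miRNA over 2-miRNA and in day 7 over day 5. Against the day 7 control, 4 members were at least 2-fold higher in 2-miRNA cells, where 6 were against day 5. Other counts over the member probe sets moved by less than 1.5 times, and their medians by less than 1 probe set SD. Counts of cohesin partners above 0 moved further with median scaling, as given above. The gap between the RAD21 probe sets, an alternative added after seeing the data, lay between 2.69 and 2.74 in 4-miRNA cells and between 2.73 and 2.80 in 2-miRNA cells over 5 scalings and offsets. The median over the probe sets of a gene gave RAD21 1.33 in 4-miRNA and 1.45 in 2-miRNA cells, and NIPBL 0.30 and 0.41. It put SMC3 at 0.74 and 0.75, where the probe set with the highest mean gave −0.21 and −0.05. It turned SMC1A in 4-miRNA cells to −0.36, where 0.30 was given, and put STAG1 at −0.20 in day 7 minus day 5, where −0.54 was given. No paired analysis was possible because each group has 1 array.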
